A study of Mus musculus with 4 samples.

Results

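The complement genes described here are C3, C4b, C2, C7, C1s, C1ra, Cfb, Masp1 and Cd55, which were taken by symbol after the transcript counts of each library had been summed per gene. They are 9 of 33924 gene symbols in the files. RNA was sequenced from Lin-LEPR+ bone marrow cells, the population that holds skeletal stem and progenitor cells, of C57Bl/6 mice aged 3 months (mature) or 24 months (elderly). The mice were WT males, and 2 libraries were made per age. The sample titles name 1 mouse for each library, whereas the methods and the extraction notes give RNA of 3 or 4 mice per group, so whether a library is a mouse or a pool is not settled. In the labels the source is bone marrow taken whole, but the methods of the study describe cells sorted as lineage-negative (Ter119, CD31 and CD45) and leptin receptor-positive, a gate that would remove erythroid, endothelial and other blood cells.

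All 9 genes had at least 1 count, and 8 were tested for an age difference. Total counts ranged from 10472117 to 15650518 per library. The LEPR+ stromal markers Cxcl12, Lepr and Igfbp5 each had at least 4107 CPM (counts scaled to the size of the library) everywhere, and the 16 stromal markers on the list summed to 47110 and 47123 CPM in mature and 33198 and 43319 CPM in elderly libraries. Markers of other marrow cells were present too, with the neutrophil markers summing to 2119 and 1217 CPM in mature and to 4553 and 4494 CPM in elderly libraries. In such bulk RNA, fewer cells of a type and less RNA per cell cannot be told apart. Because nothing says how the mice were divided among the libraries, the p-values measure only the spread between these libraries.

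Complement is a cascade of plasma proteases and their targets that marks surfaces for uptake and can open pores in membranes. The classical pathway starts when C1q, carrying the proteases C1r and C1s, binds its target and cleaves C4 and then C2, the lectin pathway does the same through mannose-binding lectins or ficolins with the MASP proteases, and the alternative pathway amplifies through factor B. All routes cleave C3, after which C5 to C9 form the membrane attack complex, and regulators such as CD55 speed the decay of the enzymes that cleave C3. The liver makes most of the circulating proteins, while macrophages are a main source of C1q and stromal cells of many tissues make C3, C4 and the C1 proteases.

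C3 and C4 are related proteins that share an internal thioester, the bond through which their activated fragments attach to surfaces. The coding sequence around it is shown for both genes because they make up nearly all of the member counts and because reads can be assigned only where sequences differ. Capitals mark the 5 codons of the thioester motif, which encode residues 1009 to 1013 of the C3 and 1005 to 1009 of the C4b precursor. The stretches lie in coding exons on the minus strand at chr17:57355237-57355311 (C3) and chr17:34871396-34871470 (C4b) of NCBIM37, and 39 of their 75 bases (52%) are identical.
C3: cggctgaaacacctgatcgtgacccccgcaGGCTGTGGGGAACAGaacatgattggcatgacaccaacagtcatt
C4b: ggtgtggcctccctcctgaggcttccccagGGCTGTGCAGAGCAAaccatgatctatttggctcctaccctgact

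Some members could be counted over only part of their exons. No transcript without a base of its own had a count (0 of 25621), so reads on bases shared between transcripts, on either strand, did not enter the files. C3 and C7 have 1 annotated transcript each and kept all of their 5132 and 2676 exonic bases. C4b kept 4499 bases (79.0%), Masp1 4646 (77.2%), Cd55 2061 (42.5%), C1ra 787 (26.2%), C2 941 (23.2%), C1s 342 (9.80%) and Cfb 62 (2.19%). Cfb and C2 share their exons with Gm20547, an annotated gene that spans both and itself kept 0 bases. Near-identical copies add to this, since 41.9% of the 40-base windows of the longest C4b transcript also occur in C4a, 52.1% of those of C1ra in C1rb and 30.3% of those of C1s in Gm5077. All 19 Cfb counts fell on a stretch of 58 bases, shown in capitals with its flanking bases. It lies at chr17:34993891-34993948 (NCBIM37, minus strand) within the coding sequence of 1 of the 6 Cfb transcripts and within an exon of none of the others.
Cfb: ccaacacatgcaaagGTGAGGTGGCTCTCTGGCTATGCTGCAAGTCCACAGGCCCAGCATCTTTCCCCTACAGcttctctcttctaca

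**Figure D1:**
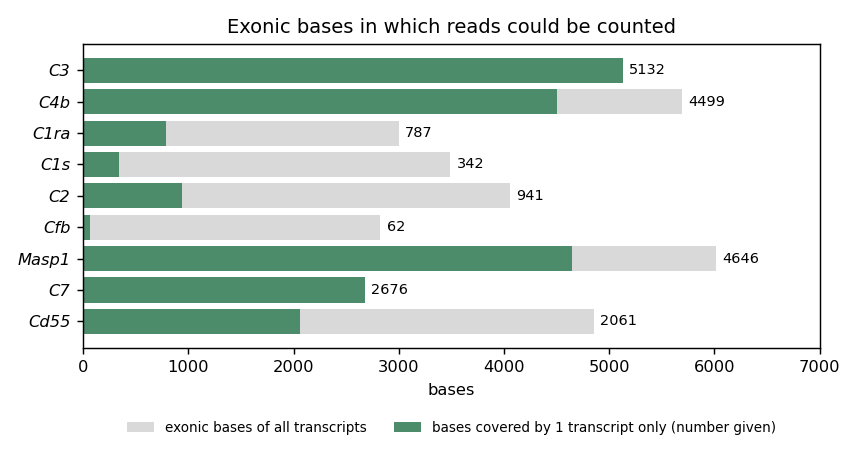
Exonic bases (x axis, number of bases) of each member gene over all its transcripts in grey, with the bases covered by 1 transcript only in green and their number beside the bar. C3 and C7 could be counted in full, whereas 62 bases of Cfb and 342 bases of C1s were countable.

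C3 and C4b stood far above the other members in every library. Together they held between 98.5% and 99.5% of the members' summed CPM, which was 6388 and 6310 in mature and 11786 and 9447 in elderly libraries. C3 ranked 30th of all genes by counts in both mature libraries, and 5th and 18th in the elderly libraries. On the scale of CPM per kilobase of countable sequence, C3 stood at 612 ± 14.6 (SD, n = 2) in mature and 1298 ± 456 in elderly libraries, and C4b at 694 ± 7.54 and 865 ± 150. On this scale C4b was above C3 in both mature libraries. The C3 to C4b ratio was 2.13 in elderly replicate 1 and 1.005 in elderly replicate 2, where the genes were almost equal. C1ra followed at 76.9 ± 5.76 and 50.8 ± 4.92, and then C1s at 26.6 ± 4.33 and 22.5 ± 5.50. C2 stood at 13.7 ± 8.88 and 6.95 ± 3.35 and Cfb at 4.86 ± 4.91 and 8.12 ± 6.96, so that the neighbours C2 and Cfb overlapped at both ages, as Cfb and Cd55 did in the mature libraries. Cd55 (1.67 ± 0.0546 and 2.43 ± 0.631), C7 (0.546 ± 0.0894 and 0.754 ± 0.782) and Masp1 (0 and 0.0193 ± 0.0273) were lowest. These values describe the countable stretches, which were 9.80% of the exonic bases of C1s and 2.19% of those of Cfb. Of the 420 C1s counts, 291 fell on a retained-intron transcript. The order of the members therefore need not be that of their whole mRNAs.

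**Figure D2:**
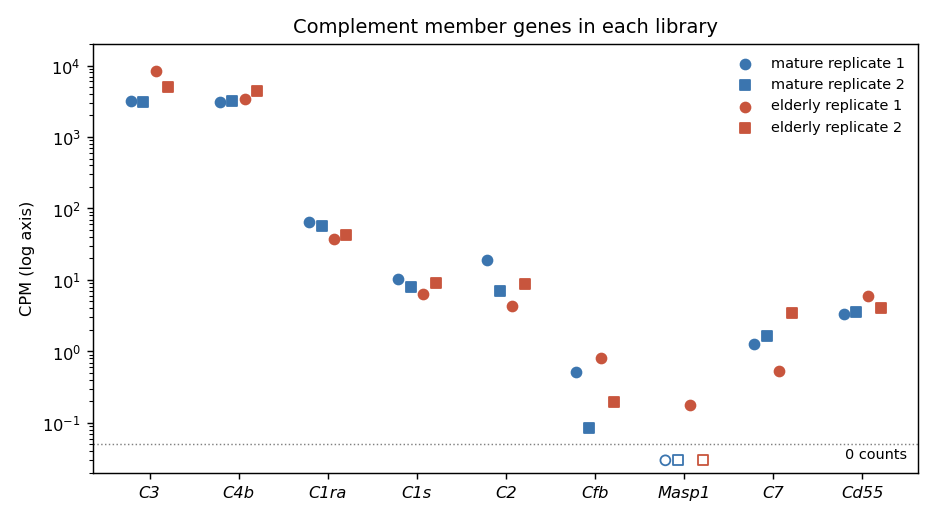
CPM (y axis, log scale) of each member gene in the 4 libraries, with circles for replicate 1 and squares for replicate 2, and open symbols under the dotted line for libraries with 0 counts. C3 and C4b lie at 3088 CPM or more in all libraries, and C3, C4b and Cd55 are higher in both elderly libraries than in both mature libraries.

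With age, C3 was the only member whose difference passed the test, and it was higher in elderly mice. Of the 8 members tested, 1 was called higher and 0 were called lower (edgeR's quasi-likelihood test, Benjamini-Hochberg adjusted p under 0.05 over 21340 genes), where 2.28% of all genes tested were called higher and 0.45% lower. At an unadjusted p under 0.05, 1 member was higher and 1 lower, against 7.61% and 3.64% of all genes, and DESeq2 called 1 higher and 0 lower. In CPM, 3 of the 8 (C3, C4b and Cd55) were higher in both elderly than in both mature libraries, as were 22.9% of all genes, and 1 (C1ra) was lower in both, as were 18.1%. The median log2 fold change of the 8 members was 0.41, against 0.016 over all genes. With 2 libraries per age, an exact permutation test of a single gene cannot give a p below 0.333.

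C3 is the protein on which all complement pathways converge. It had 3193 and 3088 CPM in the mature libraries and 8315 and 5009 CPM in the elderly libraries. Both elderly libraries were above both mature libraries, but they lay 1.66-fold apart from each other, where the mature libraries lay 1.03-fold apart. The mean rose from 3140 ± 74.7 to 6662 ± 2338 CPM (SD, n = 2 per age), a log2 fold change of 1.09 (SE 0.25, adjusted p = 0.0332 in edgeR's quasi-likelihood test). As a share of all counts, C3 took 0.311% and 0.307% in mature and 0.884% and 0.485% in elderly libraries. The call was lost when any 1 library was left out (adjusted p from 0.103 to 0.630 over the 4 edgeR fits), with a log2 fold change of 0.66 without elderly replicate 1, 1.40 without elderly replicate 2, 1.11 without mature replicate 1 and 1.02 without mature replicate 2. It was also lost at nearly the same log2 fold change in an exact test at a dispersion of 0.2 (1.09, adjusted p = 0.868) and under a stricter filter on low counts (1.06, adjusted p = 0.0719).

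The summed markers of fibroblasts and macrophages moved in the same direction as C3, and their part in the C3 difference was not tested. Not all sums did so. The osteoblast markers summed to 7068 and 6430 CPM in mature and 2261 and 4237 CPM in elderly libraries. Most of that sum was Ibsp, at 6597 and 5910 CPM in mature and 1445 and 3337 CPM in elderly libraries. Of the 8 osteoblast markers tested, 2 were called higher and 1 (Ibsp) lower, with a median log2 fold change of 0.17. The B-lineage markers summed to 773 and 681 CPM in mature and 527 and 611 CPM in elderly libraries. Most of that sum was Ebf1, which is also on the stromal list. Ebf1 had 728 and 647 CPM in mature and 416 and 541 CPM in elderly libraries. Of the 11 B-lineage markers tested, 7 were higher in both elderly than in both mature libraries and 1 (Ebf1) was lower. Their median log2 fold change was 1.24. The erythroid sums were higher in elderly libraries (322 and 131 against 840 and 937 CPM), and the megakaryocyte sums overlapped. The fibroblast markers (7 listed, 6 tested, 2 called higher, Cd34 at 1 count or fewer in each library) summed to 11.4 and 16.6 CPM in mature and 57.2 and 47.9 CPM in elderly libraries. The macrophage markers (12 listed, 10 tested, 3 called higher, Cd163 and Fcgr1 at 0 in all libraries) summed to 700 and 484 CPM in mature and 1063 and 1218 CPM in elderly libraries. The fibroblast sum was highest in elderly replicate 1, as C3 was, and the macrophage sum in elderly replicate 2. This was not particular to fibroblasts, since the neutrophil, endothelial and chondrocyte sums were also highest in elderly replicate 1. Most of the fibroblast sum was Ly6a, at 9.55 and 13.8 CPM in mature and 41.4 and 37.3 CPM in elderly libraries. Of the 6 fibroblast markers tested, 3 were higher in both elderly than in both mature libraries, and 0 were lower. Clec3b, Dpt and S100a4 overlapped between the ages. Of all genes tested, 22.9% were higher in both elderly libraries and 18.1% lower in both, and 2.28% were called higher and 0.45% lower. The LEPR+ stromal sum was lowest in elderly replicate 1, and with the libraries scaled on them C3 had 2783 and 2815 CPM in mature and 10938 and 4792 CPM in elderly libraries.

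C4b encodes the complement component C4, which is cleaved early in the classical and lectin pathways. It had 3097 and 3145 CPM in mature libraries and 3415 and 4370 CPM in elderly libraries, so the ages did not overlap. The difference (log2 fold change 0.32, SE 0.21) did not pass the test (adjusted p = 0.649, edgeR). Scaling on the LEPR+ stromal markers gave 0.64 (adjusted p = 0.00136), a scaling that moved the median of all genes by 0.34. C3 and C4b were at almost the same CPM in the mature libraries, with a C3 to C4b ratio of 1.03 and 0.98, and the ratio was 2.43 and 1.15 in the elderly libraries. Under TMM scaling the elderly library with the higher C3 was the one with the lower C4b, whereas under the stromal scaling elderly replicate 1 had the higher value of both genes. C4a, the close copy of C4b, had at most 3 counts in any library over 622 countable bases.

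**Figure D3:**
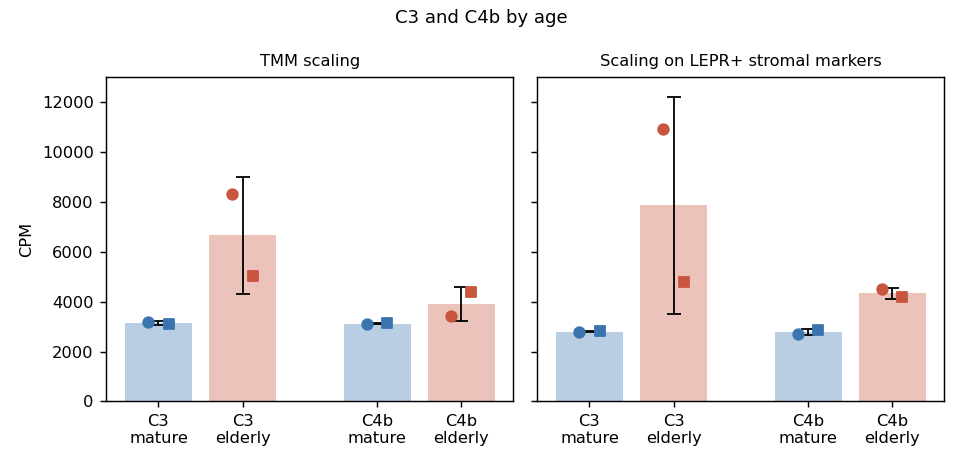
CPM of C3 and C4b by age under TMM scaling (left) and under scaling on 16 LEPR+ stromal markers (right), with bars for means, error bars for the SD (n = 2) and symbols for libraries (circle replicate 1, square replicate 2). C3 is spread widely between the elderly libraries under both scalings, and C4b of the elderly libraries lies above that of the mature libraries in both panels.

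The C3 promoter is printed because C3 was the member that changed. It comprises the 250 bases before the start given by RefSeq (GRCm38.p6, chr17:57228137-57228386, minus strand). Both strands of this window of 250 bases were searched for 5 motifs, and capitals mark the 1 match, a C/EBP motif (TTGCNNAA) at position -45. This motif occurs in 9.56% of 32851 promoter windows of the same length. TATAAA (12.4% of windows), TTCNNNGAA (7.02%), the interferon-stimulated response element (TTTC, any 2 bases, TTTC, 2.98%) and the NF-kB motif (7.25%) had no match in the C3 window. Of the members that were not called, C1s has a C/EBP match at -242 in 1 of its 2 windows, C7 has TATAAA at -6 on the opposite strand and TTCNNNGAA further upstream, and C1ra and Cd55 have none of the 5 motifs. C4b, C2, Cfb and Masp1 had no entry in the table.
C3: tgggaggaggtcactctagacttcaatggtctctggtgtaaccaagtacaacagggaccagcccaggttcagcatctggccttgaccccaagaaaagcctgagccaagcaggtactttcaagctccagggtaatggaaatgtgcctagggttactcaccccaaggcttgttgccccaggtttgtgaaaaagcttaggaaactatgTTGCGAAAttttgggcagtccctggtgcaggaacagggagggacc

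The proteases C1ra, C1s and C2 had lower means in elderly mice, a direction that turned for C1s with scaling on the stromal markers (log2 fold change 0.073), and none passed the test. C1ra, the protease that activates C1s, had 63.7 and 57.3 CPM in mature and 37.3 and 42.8 CPM in elderly libraries. Both elderly libraries were below both mature libraries (60.5 ± 4.53 against 40.02 ± 3.87 CPM, SD, n = 2), with a log2 fold change of -0.60 (SE 0.21, adjusted p = 0.241, edgeR). Nearly all of its counts (2463 of 2471) came from 1 of its 2 protein-coding transcripts. C1s, which cleaves C4 and C2, had 10.2 and 8.06 CPM in mature and 6.38 and 9.04 CPM in elderly libraries, and the ages overlapped (log2 fold change -0.24, SE 0.32, adjusted p = 0.881). Of its 420 counts, 291 fell on a retained-intron transcript.

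C2, the protease that pairs with C4b, had 18.8 and 6.95 CPM in mature and 4.31 and 8.78 CPM in elderly libraries. The ages overlapped and the mature libraries lay 2.70-fold apart (log2 fold change -0.96, SE 0.45, adjusted p = 0.458, edgeR). The value rested on the mature libraries, at -1.54 without mature replicate 2 (adjusted p = 0.00343) and -0.07 without mature replicate 1 (adjusted p = 1), where the lone mature library is assumed to vary like the elderly libraries. Of the 480 C2 counts, 297 were on a processed transcript that has no annotated coding sequence, with 128 and 55 in mature and 27 and 87 in elderly libraries, so C2 values describe mainly this transcript.

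Cfb, the protease of the alternative pathway, had 6 and 1 counts in mature and 9 and 3 counts in elderly libraries. The ages overlapped (log2 fold change 0.69, SE 1.33, adjusted p = 0.926, edgeR), and at 62 countable bases an age difference was not detectable at this depth. Masp1, a lectin pathway protease, had 2 counts in elderly replicate 1 and 0 in the other libraries, and was too low to be tested. A count of 0 allows up to 0.258 and 0.257 CPM in the mature libraries and 0.198 CPM in elderly replicate 2, by counting error only. Unlike Cfb, Masp1 could be counted over 4646 bases.

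C7, a component of the membrane attack complex, had 1.29 and 1.63 CPM in mature and 0.54 and 3.50 CPM in elderly libraries. The elderly libraries lay on either side of the mature libraries and were 6.49-fold apart (log2 fold change 0.50, SE 0.72, adjusted p = 0.891, edgeR). Without elderly replicate 2 the value was -1.42. Cd55, the only membrane regulator among the members, had 3.36 and 3.52 CPM in mature and 5.93 and 4.09 CPM in elderly libraries. The ages did not overlap, but the difference (log2 fold change 0.54, SE 0.39) did not pass the test (adjusted p = 0.690).

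Other complement genes were described from a list of 50, of which 38 were tested, 5 were called higher and 1 lower in elderly mice. Over all genes tested 2.28% were called higher and 0.45% lower. The median log2 fold change of the 38 genes was 0.50, against 0.016 over all genes. By role, 3 of 6 tested classical genes, 1 of 5 lectin genes and 1 of 9 receptor genes were called higher, and 1 of 3 terminal genes was called lower. None of 2 alternative pathway genes, 8 fluid regulators and 5 membrane regulators was called in edgeR's test.

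C1q, the recognition molecule of the classical pathway, showed the largest differences among the named complement genes. C1qa had 1.81 and 0.0858 CPM in mature and 7.82 and 12.7 CPM in elderly libraries. Its log2 fold change was 3.43 (SE 0.68, adjusted p = 0.0169, edgeR). C1qb had 2.15 and 0.343 CPM in mature and 9.16 and 17.4 CPM in elderly libraries, a log2 fold change of 3.41 (SE 0.58, adjusted p = 0.00737). C1qc had 1.21 and 0.172 CPM in mature and 4.31 and 8.12 CPM in elderly libraries, a log2 fold change of 3.16 (SE 0.65, adjusted p = 0.0198). All 3 chains were higher in both elderly libraries, and the mature libraries held between 1 and 25 counts per gene. The C1qa call was lost in DESeq2 (log2 fold change 3.42, adjusted p = 0.328) and in the robust fit (3.43, adjusted p = 0.181). All 3 calls were lost without either elderly library, at log2 fold changes from 2.63 to 3.77, and were kept without either mature library, at 5.11 to 6.75 without mature replicate 1 and 2.33 to 2.59 without mature replicate 2.

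The summed macrophage markers moved with C1q, although the CD45 gate would remove macrophages, and their part in the C1q difference was not tested. Summed C1q was 5.16 and 0.600 CPM in mature and 21.3 and 38.3 CPM in elderly libraries. The macrophage markers without Lyz2, which neutrophils also express, summed to 202 and 173 CPM in mature and 299 and 364 CPM in elderly libraries. The libraries thus stood in the same order for both sums. That order was not particular to macrophage markers, since the erythroid and plasma cell sums had it too. The erythroid sums were 322 and 131 CPM in mature and 840 and 937 CPM in elderly libraries. Mpeg1 alone made up 114 and 94.4 CPM of the mature and 195 and 235 CPM of the elderly sums of macrophage markers. The 3 macrophage markers called higher were Lyz2, Mpeg1 and Mrc1, while Mertk had 66.1 and 53.3 CPM in mature and 70.3 and 77.7 CPM in elderly libraries (log2 fold change 0.31, adjusted p = 0.670). The defining markers Cd68 (10.5 and 17.3 CPM in mature, 9.70 and 8.58 CPM in elderly) and Csf1r (1.03 and 2.49 CPM in mature, 1.98 and 1.58 CPM in elderly) were not higher, with log2 fold changes of -0.61 and 0.01.

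**Figure D4:**
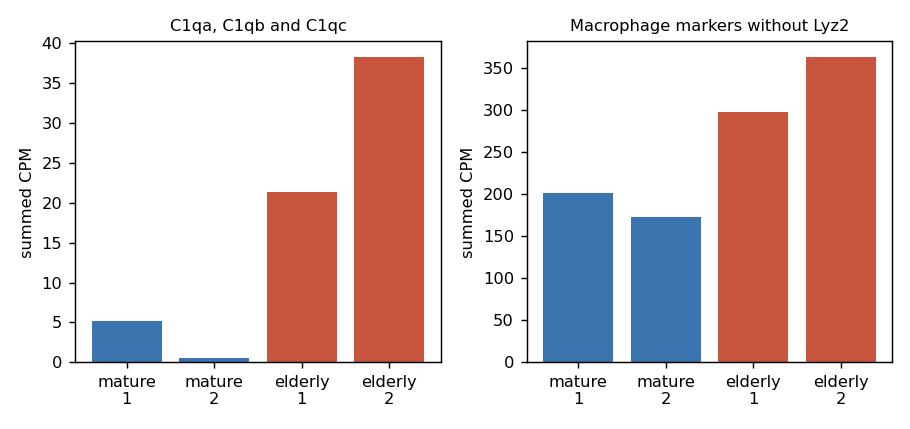
Summed CPM (y axes, linear and different in scale) of C1qa, C1qb and C1qc (left) and of the macrophage markers without Lyz2 (right) in each library. Both sums are lowest in mature replicate 2 and highest in elderly replicate 2, at 0.600 and 38.3 CPM for C1q and 173 and 364 CPM for the markers.

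Fcnb, a ficolin of the lectin pathway made by myeloid cells, and Itgb2, the beta chain of complement receptor 3 on leukocytes, were higher in elderly mice. Fcnb had 4.39 and 3.602 CPM in mature and 11.2 and 9.90 CPM in elderly libraries (log2 fold change 1.40, SE 0.33, adjusted p = 0.0400, edgeR). Itgb2 had 8.87 and 5.83 CPM in mature and 17.6 and 19.3 CPM in elderly libraries (log2 fold change 1.33, SE 0.30, adjusted p = 0.0351). For both genes the ages did not overlap. Of the neutrophil markers, 7 of 11 tested were called higher, against 2.28% of all genes. Their sum was also higher in the elderly libraries, although the same gate would remove neutrophils. Their part in the differences of Fcnb and Itgb2 was not tested. Both calls were lost in the exact test and without mature replicate 2 or either elderly library, and that of Fcnb also when counts were summed per gene identifier (adjusted p = 0.0507).

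C6, which joins C7 in the membrane attack complex, was the only complement gene on the lists called lower in edgeR's main test. It had 29.7 and 34.2 CPM in mature and 2.87 and 6.33 CPM in elderly libraries. The ages lay far apart, and C6 fell from 32.0 ± 3.20 to 4.60 ± 2.45 CPM (SD, n = 2), by 2.77 on the log2 scale (SE 0.35, adjusted p = 0.00140, edgeR). C6 could be counted over 1589 bases (39.4% of its exonic bases). Of its 872 counts, 819 fell on 444 bases outside the coding sequence of 1 of its 5 transcripts, so its values describe mainly this transcript. The call was lost without elderly replicate 1 (log2 fold change -2.35, adjusted p = 0.0565) and without elderly replicate 2 (-3.47, adjusted p = 0.630). C6 and C7 had opposite signs in the main comparison, but the difference between them was not tested.

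The other complement genes that averaged at least 20 CPM did not pass the test. Colec12, a scavenger receptor of the collectin family, had 1705 and 1698 CPM in mature and 1726 and 2040 CPM in elderly libraries (log2 fold change 0.15, SE 0.20, adjusted p = 0.879, edgeR). Clu, which encodes the fluid-phase regulator clusterin, had 893 and 755 CPM in mature and 537 and 751 CPM in elderly libraries (log2 fold change -0.36, SE 0.22, adjusted p = 0.626). Serping1, the C1 inhibitor, had 739 and 702 CPM in mature and 465 and 566 CPM in elderly libraries, without overlap (log2 fold change -0.48, SE 0.20, adjusted p = 0.341). Cd93, Csmd1 and C1rl had log2 fold changes between 0.097 and 0.12 with adjusted p from 0.922 to 0.943. Cfp, which encodes properdin, had 14.9 and 16.98 CPM in mature and 22.2 and 32.7 CPM in elderly libraries (log2 fold change 0.79, SE 0.27, adjusted p = 0.218).

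**Figure D5:**
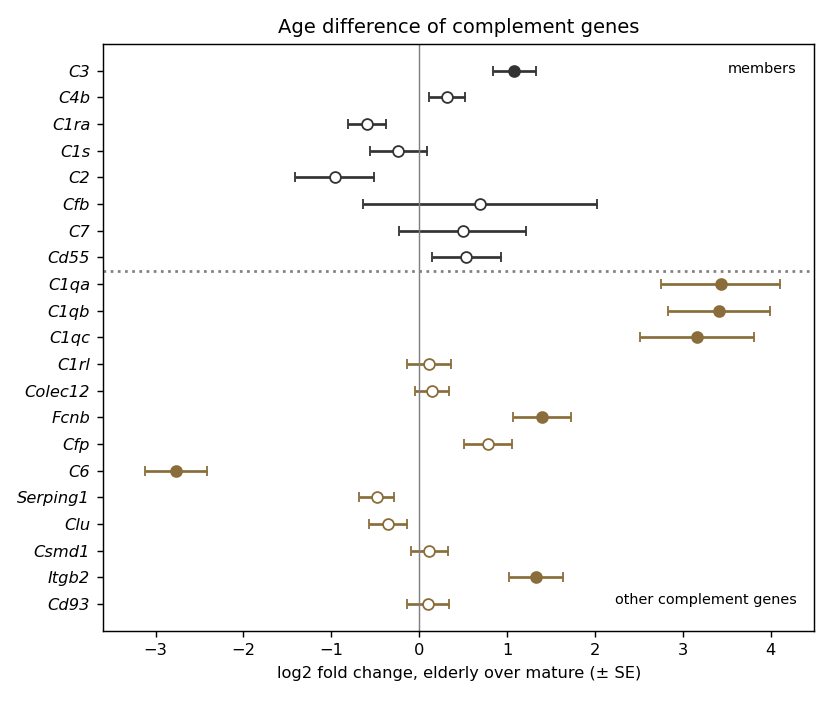
Log2 fold change of elderly over mature libraries (x axis) with its SE for the 8 tested members (black) and 13 other complement genes (brown), with filled circles for genes at an adjusted p under 0.05. C3 is the filled member at 1.09, the 3 C1q genes lie between 3.16 and 3.43, and C6 lies at -2.77.

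C3 transcription is known to respond to interferon and NF-kB signalling in many cells, so lists of genes responsive to each were counted. Of 21 tested interferon response genes, 2 (Cxcl9 and Gbp2) were called higher and 0 lower, with a median log2 fold change of 0.11, against 2.28%, 0.45% and 0.016 over all genes. Of 18 tested genes of the NF-kB and acute phase response, 2 (Icam1 and Il1b) were called higher and 0 lower, with a median of 0.17, read against the same background. Socs3, the gene of the second list at the highest level, had 2900 and 1755 CPM in mature and 1830 and 2217 CPM in elderly libraries (log2 fold change -0.20, adjusted p = 0.861, edgeR).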

How the data were processed

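The deposited values are counts of reads per Ensembl transcript, not normalized. The authors removed adapters with CutAdapt, aligned reads to mm9 (NCBI Build 37) using HISAT2 and ran featureCounts in Galaxy. The kit marks strand. Tool versions, the strand setting and the handling of reads on shared bases are not given in the sources used here.

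Transcripts (95883, of which 388 were unmatched and held at most 0.0888% of a library's counts) were matched to GENCODE M1 and summed per symbol. Groups were taken from the sample titles. Genes with a summed count above 2 (21340) were scaled by TMM (factors 0.975, 0.995, 1.06 and 0.969) and ages compared with edgeR 4.0.16 in R 4.3.3 by its quasi-likelihood test (2-sided, no covariate, Benjamini-Hochberg adjustment, common dispersion 0.0687, prior count 0.125). The study used edgeR's exact test at a dispersion of 0.2, which was run as an alternative, as was DESeq2 1.42.0. The SE is the absolute log2 fold change divided by the root of the F statistic. Total counts were 11930137 and 11730849 (mature) and 10472117 and 15650518 (elderly). Counting intervals (95%, Poisson) cover counting error only.

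Countable bases are exonic bases that lie in 1 transcript only, and CPM per kilobase is CPM over their length. Every member is described, together with the other complement genes that were called or averaged at least 20 CPM, and up to 3 genes of each marker or response list with the highest mean. Genes called in a short list, and Cd34, Cd163, Fcgr1, Mrc1, Cd68 and Csf1r, were named after their values were seen. The members and lists were chosen with earlier results of these data known. Promoters are from RefSeq.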

Additional observations from a re-analysis of the deposited data

How the results depend on the processing

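Besides edgeR's quasi-likelihood test, DESeq2, an exact test, a robust fit, other filters and scalings, single transcripts, protein-coding genes only, a replicate block, gene identifiers in place of symbols (chosen after seeing the data), a fold threshold and leaving out each library were run. The number of members called higher (1) became 0 in the exact test and with filterByExpr, 2 with scaling on LEPR+ stromal markers (C3 and C4b), and was 0 in all 4 fits without a library. The number called lower (0) ranged from 0 to 1 without a library, the 1 being C2 without mature replicate 2. For the other complement genes, the 5 called higher became 3 in the exact test and ranged from 0 to 5 without a library. The 1 called lower became 2 without a filter and 2 with the replicate block, and ranged from 0 to 2 without a library. Replicate numbers are not known to pair the libraries (correlation of same-numbered deviations 0.035), and C3 had a log2 fold change of 1.04 with the replicate block (adjusted p = 0.00316, edgeR). Signs turned for C7 without elderly replicate 2 (range without a library -1.42 to 1.24), for C1s with stromal scaling (0.073), and for Cfb without mature replicate 2 (-0.13) and without elderly replicate 1 (-0.60, range to 2.38), all uncalled. The cause was not tested. Without elderly replicate 1, 36 of all genes were called higher and 4 lower, and without elderly replicate 2 there were 0 in either direction. Without mature replicate 1, 729 were called higher and 132 lower, and without mature replicate 2, 523 and 158, and C3 lost its call there too. Cfb, Masp1 and C7 are limited by depth, and Cfb, C1s and C2 by the bases that could be counted.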
